A study of Mus musculus with 8 samples.

Results

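The 10 genes described here encode enzymes that make or break down triglyceride and its precursors: the lipins (Lpin1, Lpin2, Lpin3), acyltransferases (Gpam, Agpat3, Dgat1, Dgat2) and lipases (Pnpla2, Lipe, Lipg). They were picked by gene symbol, and all 10 stand among the 13751 genes of the deposited normalised table; the count files hold 57010 genes. The choice was made with the difference between FAC and control in these libraries already known. The changes of the 10 genes are therefore given as a description, without a p-value, and support nothing by themselves.

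The libraries hold RNA of naive CD4 T cells from wild-type C57BL/6 mice, isolated by sorting from peripheral lymph nodes and cultured in RPMI medium with 10% serum. The FAC group comprised 4 cultures activated for 20 h on coated anti-CD3 and anti-CD28 (both at 4 µg/mL) with an iron supplement that the labels call FAC. The control group comprised 4 cultures activated in the same way without the supplement. Mouse numbers 1 to 4 each name 1 FAC and 1 control culture. The sources used here do not give the iron dose, any vehicle, or the age and sex of the mice.

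Triglyceride is built on glycerol phosphate. Gpam adds the first fatty acid, lysophosphatidate acyltransferases such as Agpat3 add the next to give phosphatidate, lipins remove its phosphate to give diacylglycerol, and Dgat1 or Dgat2 adds the last fatty acid. Stored triglyceride is opened by Pnpla2, known as adipose triglyceride lipase, and diacylglycerol is then cut by Lipe, the hormone-sensitive lipase. Phosphatidate and diacylglycerol are also precursors of membrane phospholipids, and diacylglycerol is a signal in T cells activated through the antigen receptor. Lipg encodes endothelial lipase, a secreted enzyme that mainly cleaves phospholipids of high-density lipoprotein.

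Windows of 300 bases around the start site, from RefSeq on build GRCm38.p6, are shown for the lipin gene that rose with FAC, for its paralogue Lpin2 and for Gpam, the enzyme of the entry step. They run from 250 bases before to 50 bases after the start. Of the 10 genes, 7 have windows here, 12 in all, and none is given for Lipg, Dgat1 or Dgat2. The Lpin1 window is chr12:16610917-16611216 (minus strand), the Lpin2 window chr17:71183282-71183581 (plus strand) and the Gpam window chr19:55127189-55127488 (minus strand), each the entry listed before any other of its gene. Capitals mark exact matches, on either strand, to CACCCCAC (part of the sterol regulatory element that SREBP proteins bind), CCAAT (the NF-Y box), CACGTG (an E-box) and GGGCGG (a GC box).
Lpin1: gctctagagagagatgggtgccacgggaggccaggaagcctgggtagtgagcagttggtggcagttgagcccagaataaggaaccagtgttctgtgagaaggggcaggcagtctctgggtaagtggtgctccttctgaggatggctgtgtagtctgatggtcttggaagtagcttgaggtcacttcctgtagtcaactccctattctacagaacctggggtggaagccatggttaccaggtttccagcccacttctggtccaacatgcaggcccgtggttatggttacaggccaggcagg
Lpin2: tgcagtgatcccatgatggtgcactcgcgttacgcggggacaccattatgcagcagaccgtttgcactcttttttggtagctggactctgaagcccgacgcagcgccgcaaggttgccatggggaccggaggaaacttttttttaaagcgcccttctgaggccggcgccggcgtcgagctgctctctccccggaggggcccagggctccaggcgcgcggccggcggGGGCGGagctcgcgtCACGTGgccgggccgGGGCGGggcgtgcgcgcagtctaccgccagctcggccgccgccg
Gpam: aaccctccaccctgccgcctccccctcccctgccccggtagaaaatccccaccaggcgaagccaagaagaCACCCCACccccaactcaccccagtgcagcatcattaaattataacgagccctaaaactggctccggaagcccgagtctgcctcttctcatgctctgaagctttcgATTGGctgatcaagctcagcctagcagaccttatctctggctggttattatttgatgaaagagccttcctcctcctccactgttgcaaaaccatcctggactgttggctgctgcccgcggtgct
The Lpin1 window holds none of these 4 strings. The Gpam window holds CACCCCAC beginning 180 bases before the start and CCAAT, on the opposite strand, beginning 74 bases before it. The Lpin2 window holds CACGTG beginning 9 bases before the start and GGGCGG beginning 24 bases before and 7 bases into the transcript. Of the 32851 windows searched over all genes, 2.87% hold CACCCCAC, 37.4% CCAAT, 7.15% CACGTG and 35.7% GGGCGG. A match describes letters and is not a binding site. In GENCODE M21, an annotation of the same earlier build, other Lpin1 transcripts start 6853, 21193 to 21246, 48522 and 48928 bases downstream of this start, and those starts lie outside the window.

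Library totals ran from 25410267 to 37350609 counts. At an adjusted p under 0.05, edgeR's test called 438 of 13378 genes (291 of them higher with FAC, 147 lower); at an unadjusted p under 0.05 there were 2463. The count fell to 188, 209 and 247 without control 1, 2 and 3 and to 168 and 147 without FAC 2 and 3. All 9 defining markers of CD4 T cells had a mean above 1 CPM (counts scaled to library size in edgeR, on its TMM scale) and 1 of them was called, with summed levels of 3300 to 3370 CPM in FAC libraries and 3150 to 3320 CPM in control libraries. Each culture is a bulk sample, so fewer cells expressing a gene and less RNA per cell cannot be told apart.

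With FAC, Lpin1 and Lipg had higher RNA, at 1.94 and 2.41 times their control levels, while the acyltransferases, Lpin2 and Pnpla2 stayed within 0.25 log2 units of control. In edgeR's fit across all genes, 2 of the 9 tested members passed the threshold, both higher, and 7 did not. Among all tested genes 3.27% passed, 2.18% higher and 1.10% lower, and nothing is read from the members' share because this contrast chose them. The median log2 change of the 9 was 0.07, against -0.00 over all tested genes. Leaving out any single library kept the count at 2. With limma on log2(TPM + 1) or log2(TPM + 0.1) it was 1, Lpin1.

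**Figure D1:**
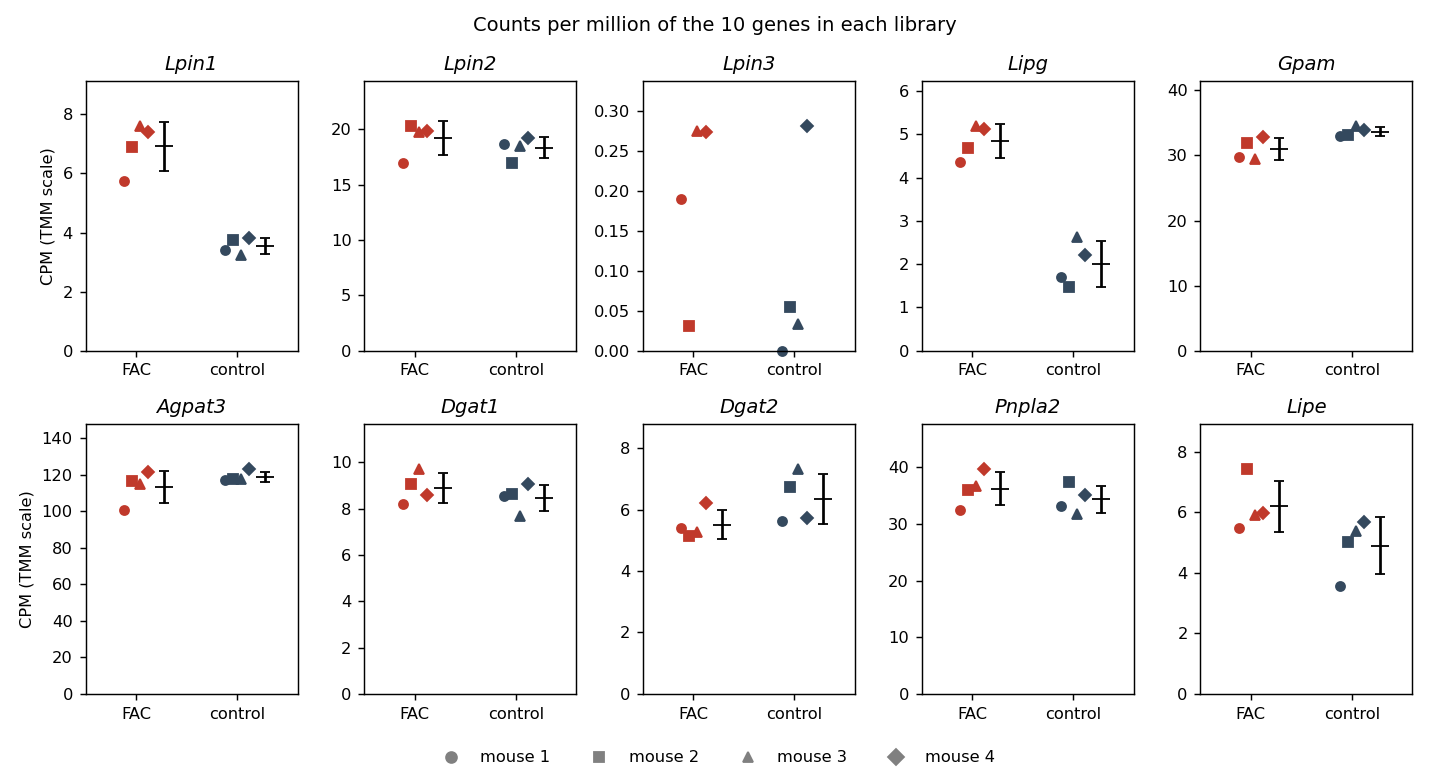
CPM (TMM scale, linear axes from 0) of each gene in the 4 FAC and 4 control libraries; symbols mark the mouse and bars the mean and SD of a group, drawn for all genes but Lpin3. Every FAC library lies above every control library for Lpin1 and Lipg and below for Gpam, and the groups overlap for the other 7.

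Lpin1 (ENSMUSG00000020593, chromosome 12) encodes lipin 1, a phosphatidate phosphatase that also acts in the nucleus as a transcriptional coactivator. It had 181, 225, 221 and 189 counts in FAC libraries of mice 1 to 4 and 86, 138, 98 and 108 counts in control libraries. On the CPM scale these were 5.75, 6.90, 7.60 and 7.39 with FAC, against 3.41, 3.75, 3.23 and 3.80 in controls. The lowest FAC library was above the highest control library. Lpin1 averaged 6.91 ± 0.8288 CPM with FAC and 3.55 ± 0.275 CPM in controls (SD, n = 4 each), a log2 change of 0.96 (SE 0.13). The rise was seen in 4 of 4 mice, with within-mouse log2 changes in CPM of 0.75, 0.88, 1.24 and 0.96. Of the 13378 tested genes, 202 (1.51%) had a log2 change at least as high.

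The level of Lpin1 per length, in TPM (RSEM's transcript abundance, scaled for length and depth), was 2.34, 2.21, 2.85 and 2.30 with FAC and 1.06, 0.97, 1.07 and 1.21 in controls. The within-mouse log2 changes in TPM were 1.14, 1.19, 1.41 and 0.93, larger than those in CPM in mice 1 to 3. In those mice the effective length, a mean over the gene's transcripts weighted by their estimated share, was shorter with FAC. It was 3473, 4440, 3831 and 4548 bases in FAC libraries, against 4480, 5207, 4212 and 4413 bases in control libraries of mice 1 to 4. With effective length as an offset in edgeR the log2 change was 1.13. The count files list 10 transcripts for Lpin1, and values per transcript were not analysed here.

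Lpin2 (ENSMUSG00000024052), a second phosphatidate phosphatase of the family, had the higher level of the pair and did not pass the threshold. It had 16.9, 20.3, 19.8 and 19.9 CPM with FAC and 18.7, 16.97, 18.5 and 19.2 CPM in controls. The groups overlapped, and Lpin2 was higher with FAC in 3 of 4 mice (log2 change 0.07, SE 0.07). In TPM, Lpin2 averaged 7.32 ± 1.02 with FAC and 6.59 ± 0.947 in controls (SD, n = 4 each), above Lpin1 in each library. Lpin1 supplied 20.4% to 29.4% of the summed TPM of the 3 lipin genes in FAC libraries and 11.55% to 16.6% in control libraries. The mean share was 24.3% ± 3.86 with FAC and 14.1% ± 2.08 in controls (SD, n = 4 each), and the ranges did not overlap.

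Lpin3 (ENSMUSG00000027412), the third lipin gene, was near the limit of detection and fell below the filter on low counts, so it was not tested. It had 6, 1, 8 and 7 counts in FAC libraries and 0, 2, 1 and 8 counts in control libraries of mice 1 to 4. The counts overlapped, and only 2 of 4 mice had a higher CPM with FAC. The 0 in control 1 allows up to 0.119 CPM at 3 counts. Its scaled values depended on length: 6 counts in FAC 1 became 15.1 in the deposited normalised table, with an effective length of 717 bases, whereas 8 counts in FAC 3 became 4.70, with 3306 bases.

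Lipg (ENSMUSG00000053846, chromosome 18), the endothelial lipase gene, had the largest rise of the 9 tested members. It had 137, 153, 151 and 131 counts in FAC libraries and 43, 54, 80 and 63 counts in control libraries. In CPM these were 4.35, 4.69, 5.20 and 5.12 with FAC, against 1.70, 1.47, 2.64 and 2.22 in controls, and the groups did not overlap. Lipg averaged 4.84 ± 0.394 CPM with FAC and 2.01 ± 0.523 CPM in controls (SD, n = 4 each), a log2 change of 1.27 (SE 0.18). It was higher in 4 of 4 mice, by 1.35, 1.68, 0.98 and 1.21 on the log2 CPM scale. Mouse 3, with the smallest change, had the highest control value. Its effective length averaged 3514 bases with FAC and 3601 bases in controls, and the log2 change with length as an offset was 1.302. Of the tested genes, 63 (0.471%) had a log2 change at least as high.

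Endothelial cells are a known source of Lipg, and their markers were read in the same libraries. Of 7 endothelial markers, Cdh5, Vwf, Kdr, Tie1 and Emcn had 0 counts in all 8 libraries. Their summed level was 8.16 to 10.6 CPM with FAC and 7.18 to 8.89 CPM in controls, nearly all of it Pecam1, which some T cells also express (9.31 CPM with FAC and 8.22 CPM in controls). Pecam1, the only one of the 7 with enough counts for edgeR's test, did not pass. Of 6 adipocyte markers, Lep, Cfd, Fabp4 and Cidec had 0 counts, and the sum reached 0.0921 CPM with FAC and 0.033 CPM in controls.

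The acyltransferases did not pass the threshold. Gpam (ENSMUSG00000024978), the mitochondrial glycerol phosphate acyltransferase, had 29.7, 31.97, 29.5 and 32.8 CPM with FAC and 33.0, 33.2, 34.5 and 34.0 CPM in controls. All 4 FAC libraries lay below all 4 control libraries, by a small amount (log2 change -0.12, SE 0.05). Per length the groups overlapped, with 8.01 to 8.88 TPM with FAC and 7.98 to 9.27 TPM in controls, and mouse 2 was higher with FAC (0.15 on the log2 TPM scale). In CPM, 3 of the 10 members had groups that did not overlap, against 11.1% of all tested genes. FAC lay above control in 2 of them (6.17% of all tested genes) and below in 1 (4.89%), and nothing is read from these counts.

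Agpat3 (ENSMUSG00000001211), an acyltransferase of lysophospholipids, was the most abundant member. It had 101, 117, 115 and 121 CPM with FAC and 117, 118, 117 and 123 CPM in controls. Each mouse was lower with FAC in CPM (log2 change -0.07, SE 0.05), but in TPM 3 of 4 mice were higher, so its direction turned with the scale. Its effective length averaged 1900 bases with FAC and 1987 bases in controls. Agpat3 and Gpam were the 2 members lower in 4 of 4 mice in CPM, as were 15.4% of all tested genes.

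The diacylglycerol acyltransferases, which share a reaction but not a protein family, both had overlapping groups. Dgat1 (ENSMUSG00000022555) had 8.20, 9.05, 9.70 and 8.60 CPM with FAC and 8.52, 8.62, 7.68 and 9.05 CPM in controls (log2 change 0.07, SE 0.10). Dgat2 (ENSMUSG00000030747) had 5.40, 5.16, 5.26 and 6.22 CPM with FAC and 5.63, 6.74, 7.32 and 5.74 CPM in controls (log2 change -0.21, SE 0.12). Dgat1 was higher with FAC in 2 of 4 mice and Dgat2 in 1 of 4. Dgat1 supplied 74.4% ± 3.29 of their summed TPM with FAC and 71.6% ± 3.88 in controls (SD, n = 4 each), with overlapping ranges.

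Of the intracellular lipases, Pnpla2 (ENSMUSG00000025509) had 32.5, 36.0, 36.6 and 39.7 CPM with FAC and 33.2, 37.3, 31.7 and 35.1 CPM in controls. The groups overlapped, and 2 of 4 mice were higher (log2 change 0.07, SE 0.07). Lipe (ENSMUSG00000003123) had 5.50, 7.43, 5.92 and 5.98 CPM with FAC and 3.57, 5.004, 5.37 and 5.67 CPM in controls. Lipe was higher with FAC in 4 of 4 mice, yet FAC 1 lay below control 4, and it did not pass the threshold (log2 change 0.34, SE 0.15). Its within-mouse changes were 0.62, 0.57, 0.14 and 0.08 in log2 CPM, against 0.38, 0.70, 0.38 and 0.36 in log2 TPM. With Lpin1 and Lipg it made 3 members higher in 4 of 4 mice, as were 14.7% of all tested genes. Lipe overlaps 4732471J01Rik on the opposite strand, which had 0.623 CPM with FAC and 0.412 CPM in controls (edgeR adjusted p = 0.359). The sources used here do not give the strand setting of the counting, so reads of the overlapping pair cannot be told apart. Lpin3, Gpam and Agpat3 also overlap opposite-strand genes, each at up to 0.295 CPM.

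**Figure D2:**
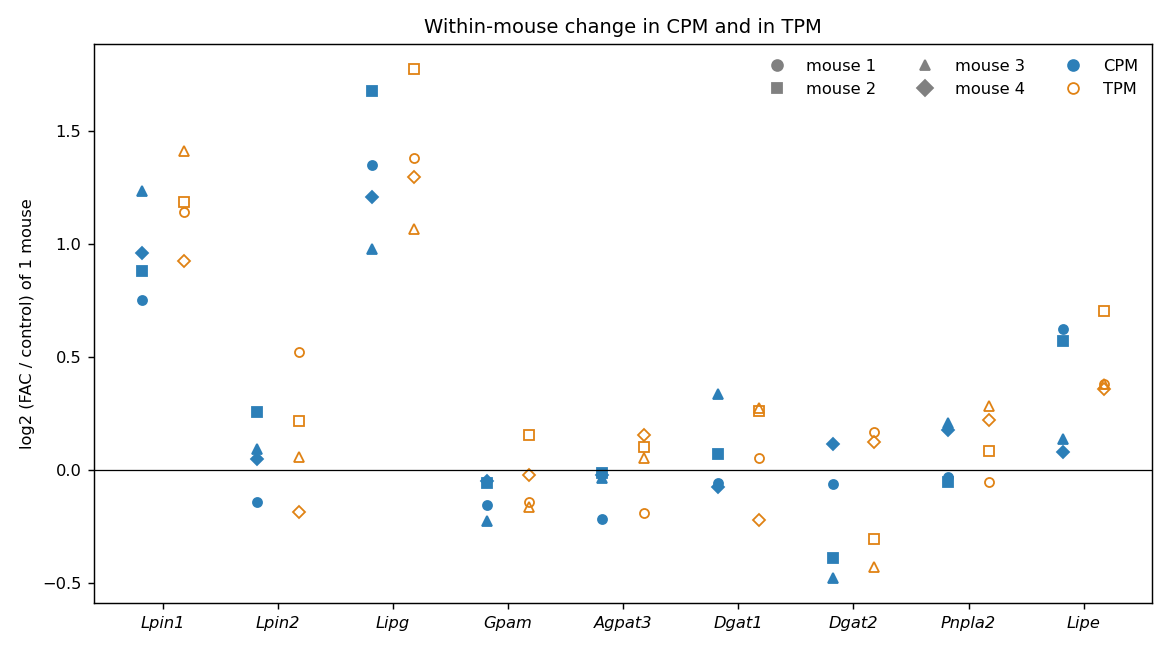
Change within each mouse, as log2 of FAC over control, for 9 of the genes (Lpin3 had a 0 count); filled blue symbols are CPM, open orange symbols TPM per length, and symbol shape marks the mouse. Lpin1 and Lipg lie above 0.7 in all 4 mice on both scales, and Lipe is above 0 in all 4. Agpat3 changes side between the scales except in mouse 1 (-0.22 in CPM and -0.19 in TPM).

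Per length the members spanned a wide range, from 85.1 ± 10.7 TPM with FAC and 82.8 ± 2.91 TPM in controls for Agpat3 to under 1 TPM for Lpin3 (SD, n = 4 each). After Agpat3, the order of control means was Pnpla2 (31.1 ± 3.76 TPM with FAC, 28.2 ± 2.08 in controls), Dgat1 (11.6 ± 1.45 and 10.8 ± 1.303), Gpam (8.50 ± 0.416 and 8.75 ± 0.547) and Lpin2. Below these came Dgat2 (3.94 ± 0.290 TPM with FAC, 4.28 ± 0.667 in controls), Lipe (3.44 ± 0.580 and 2.51 ± 0.460), Lpin1 (2.43 ± 0.289 and 1.08 ± 0.0991) and Lipg (1.96 ± 0.217 and 0.773 ± 0.215). In FAC libraries the neighbours Gpam and Lpin2, Dgat2 and Lipe, and Lipe and Lpin1 had overlapping ranges, and in control libraries only Lpin1 and Lipg did. Agpat3 exceeded 85.6% of tested genes in mean TPM with FAC and 85.3% in controls. Lpin1 exceeded 24.2% with FAC and 16.0% in controls, and Lipg 21.5% with FAC and 12.3% in controls.

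**Figure D3:**
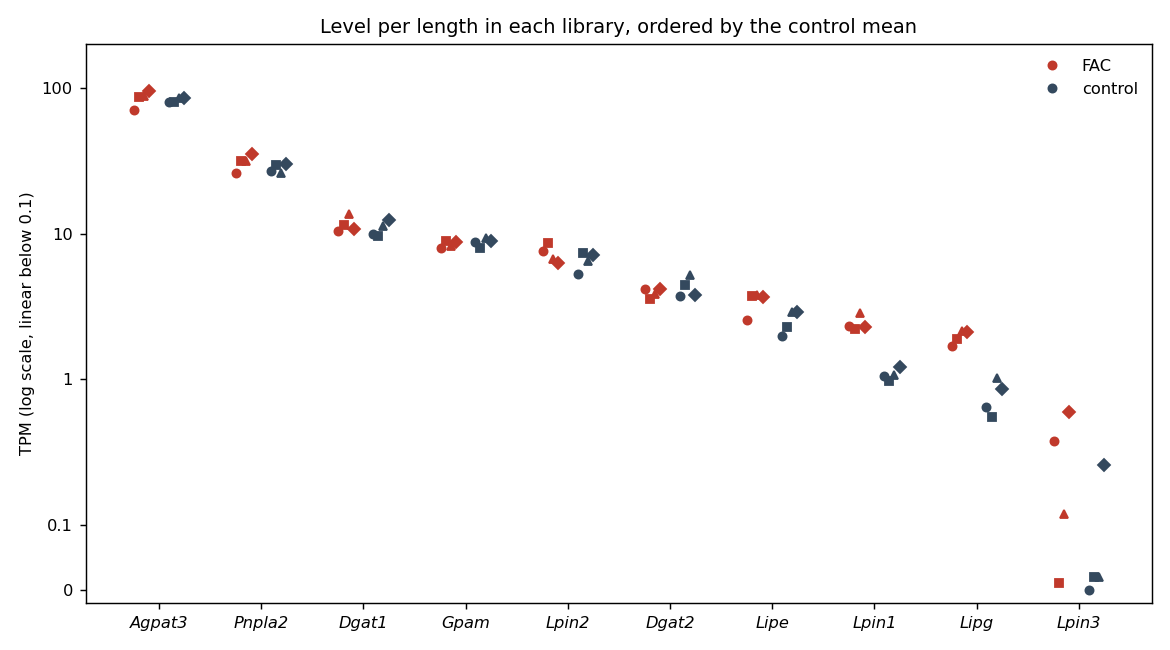
Level per length of each gene, in TPM, in the 4 FAC and 4 control libraries, on a log axis that is linear below 0.1 TPM; symbol shape marks the mouse as in the plot of CPM by library. Agpat3 is highest and Lpin3 lowest in both groups, and Lpin1 and Lipg, both low in controls, stand nearer to Lipe with FAC.

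The genes whose profile over the 8 libraries was most like that of Lpin1 were Fdps, Gm47015, Insig1 and Etohd2. Likeness was the root-mean-square difference of log2 CPM centred on each gene's mean, computed for 10397 genes at a mean log2 CPM of at least 1. It was 0.108, 0.119, 0.137 and 0.137 for these genes, against a root-mean-square deviation of 0.489 of Lpin1 from its own mean. Fdps encodes farnesyl diphosphate synthase of sterol synthesis and had 130 ± 8.64 CPM with FAC and 70.2 ± 4.41 CPM in controls (SD, n = 4 each). Etohd2 had 2.91 CPM with FAC and 1.66 CPM in controls. It overlaps the more abundant Isca1 (74.8 and 75.3 CPM) and Tut7 (72 and 68.6 CPM) on the opposite strand. For Lipg the closest were Casz1, Gm42659, D7Bwg0826e and Gm47015, at 0.224, 0.245, 0.254 and 0.293, against 0.679 for Lipg itself. Lpin1 and Lipg differed from each other by 0.314. The measure rests mainly on the difference between groups, so genes of like fold change come out alike. D7Bwg0826e (4.82 CPM with FAC and 2.25 CPM in controls) overlaps Fuz on the opposite strand (14.9 and 12.8 CPM). Gm42659 (3.09 and 1.58 CPM) lies with the far more abundant Capza1 on the same strand (439 and 466 CPM). Whether reads of such partners were counted for these genes was not tested. Casz1 (2.76 CPM with FAC and 1.42 CPM in controls) overlaps Gm13205 on the opposite strand (2.06 CPM with FAC and 1.94 CPM in controls).

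Around the 10 genes, 6 lists of other genes, of glycerolipid metabolism and of its regulators, were read from the same fit. Of 85 tested genes in them, 7 passed edgeR's threshold, all higher with FAC, and 78 did not (8.24% passed, against 3.27% of all tested genes). The list of regulators, with 15 tested genes, held 2 of the 7, the sterol control genes Insig1 and Srebf2. The median log2 change of the 85 was 0.01, beside -0.00 over all tested genes. Without FAC 2 the count was 4 and without FAC 3 it was 3. With effective length as an offset it was 4, where 1.40% of all tested genes passed. With the mouse as a replicate block 10 were higher and 2 lower, where 6.87% of all tested genes passed. The lists were drawn up with earlier results of these data known.

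**Figure D4:**
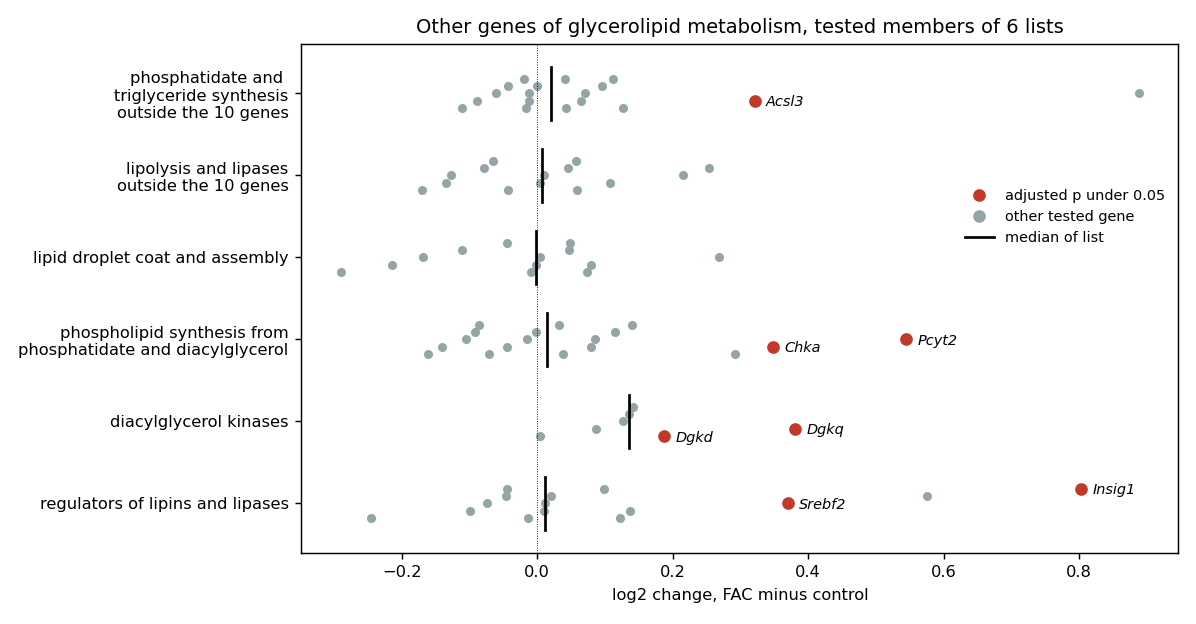
Log2 change, FAC minus control, from edgeR for the 85 tested genes of 6 lists, 1 dot a gene; red, labelled dots passed an adjusted p under 0.05 and black bars are list medians (vertical spread within a list has no meaning). Medians lie near 0 in 5 lists and at 0.14 for the diacylglycerol kinases.

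Among 18 other genes of phosphatidate and triglyceride synthesis, Acsl3 was the only one to pass (median of the list 0.02). Acsl3 encodes an acyl-CoA synthetase that activates fatty acids. It had 23.5, 20.6, 21.5 and 24.1 CPM with FAC and 18.9, 17.1, 17.9 and 17.9 CPM in controls, with no overlap (log2 change 0.32, SE 0.07, edgeR adjusted p = 0.0239). The call ended without control 2, 3 or 4 or FAC 3 (highest adjusted p = 0.0773) and with the length offset (adjusted p = 0.0582). Acsl3 overlaps Utp14b on the same strand (23.5 CPM with FAC and 21.1 CPM in controls). The acyltransferases of the list that share the Gpat and Agpat names did not pass, with log2 changes of 0.11 for Gpat3, -0.01 for Gpat4, -0.02 for Agpat1, 0.04 for Agpat2, -0.02 for Agpat4 and -0.06 for Agpat5; these were chosen after their values were seen, and Gpat2, with at most 8 counts, was not tested. Plpp2, a lipid phosphate phosphatase gene with 4 to 26 counts a library and also chosen after its value was seen, had a log2 change of 0.89 (SE 0.45) and did not pass (edgeR adjusted p = 0.32).

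Of 14 other lipase and lipolysis genes edgeR called 0, and 0 also with the length offset; with the replicate block it called 1, Pnpla6 (log2 change 0.21, edgeR adjusted p = 0.0336). The list's most abundant gene, Lmf2, a lipase maturation factor, averaged 51.1 ± 2.47 CPM with FAC and 49.1 ± 2.89 CPM in controls (SD, n = 4 each; log2 change 0.06, SE 0.06, edgeR adjusted p = 0.625). Lipg's closest relatives Lpl and Lipc had 0 counts in all libraries, as had Gpihbp1, which anchors lipoprotein lipase on endothelium (chosen after their values were seen). Of 13 lipid droplet genes edgeR called 0; with the replicate block Hilpda, an inhibitor of Pnpla2 (-0.29, edgeR adjusted p = 0.0181), and Spast (-0.17, edgeR adjusted p = 0.0447) were lower. Aup1, the most abundant of them, averaged 117 ± 4.89 CPM with FAC and 114 ± 5.10 CPM in controls (SD, n = 4 each; log2 change 0.05, SE 0.04, edgeR adjusted p = 0.629).

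Of 18 genes that make phospholipids from phosphatidate or diacylglycerol, Pcyt2 and Chka rose (median of the list 0.01). Pcyt2, which encodes the rate-limiting enzyme of phosphatidylethanolamine synthesis, had 96.7, 99.2, 99.4 and 98.0 CPM with FAC and 67.9, 65.7, 63.3 and 72.8 CPM in controls. It did not overlap and was stayed called whichever library was left out (log2 change 0.55, SE 0.05, edgeR adjusted p = 1.54e-05). Chka, which encodes choline kinase alpha, had 32.1, 31.2, 32.8 and 26.2 CPM with FAC and 23.9, 24.6, 24.1 and 23.6 CPM in controls (log2 change 0.35, SE 0.07, edgeR adjusted p = 0.0177). Its call ended without control 1, FAC 2 or FAC 3 (highest adjusted p = 0.0757) and with the length offset (adjusted p = 0.247), and in TPM mouse 4 was lower with FAC. With the replicate block Chkb also passed (0.29, edgeR adjusted p = 0.0447).

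Of 7 diacylglycerol kinase genes, whose products turn diacylglycerol back into phosphatidate, Dgkd and Dgkq rose (median of the list 0.14). Dgkd averaged 279 ± 5.52 CPM with FAC and 245 ± 10.9 CPM in controls (log2 change 0.19, SE 0.04, edgeR adjusted p = 0.0182; SD, n = 4 each). Dgkq averaged 23.8 ± 1.62 CPM with FAC and 18.3 ± 1.52 CPM in controls (log2 change 0.38, SE 0.08, edgeR adjusted p = 0.0166; SD, n = 4 each). The Dgkd call ended without FAC 2 or FAC 3 (highest adjusted p = 0.0816) and the Dgkq call without control 2 or 3 or FAC 2 or 3 (highest adjusted p = 0.0744). With the length offset Dgkq no longer passed (adjusted p = 0.0878). Both overlap expressed genes on the opposite strand, Usp40 for Dgkd and Tmem175 and Idua for Dgkq. Dgkd also overlaps Gm38365 on the same strand, at 1.44 CPM with FAC and 0.589 CPM in controls (edgeR adjusted p = 0.057). With the replicate block Dgka, the kinase gene known for damping diacylglycerol signals in T cells, also passed (0.14, edgeR adjusted p = 0.0481).

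Of 15 genes that regulate lipins or lipases, Insig1 and Srebf2 rose (median of the list 0.01). Insig1, which holds SREBP proteins in the endoplasmic reticulum and is itself an SREBP target, had 159, 155, 164 and 160 CPM with FAC and 86.5, 89.2, 89.6 and 99.8 CPM in controls (log2 change 0.80, SE 0.05, edgeR adjusted p = 4.56e-07). Srebf2, the SREBP gene of sterol synthesis, averaged 508 ± 27.1 CPM with FAC and 393 ± 13.5 CPM in controls (SD, n = 4 each; log2 change 0.37, SE 0.04, edgeR adjusted p = 2.58e-04). Both stayed called whichever library was left out. Srebf2 overlaps Gm49502 on the same strand, at 0.988 CPM with FAC and 0.462 CPM in controls (edgeR adjusted p = 0.138). Srebf1 (0.12, edgeR adjusted p = 0.294), Foxo1 (0.02, edgeR adjusted p = 0.862) and the lipin phosphatase gene Ctdnep1 (-0.10, edgeR adjusted p = 0.317), chosen after their values were seen, did not pass. Of the factors known to drive lipin and lipase genes in liver and fat, Ppargc1a had 0 counts in all libraries, and Pparg and Ppara had at most 2 and 4 counts in a library (chosen after their values were seen). Other transcription factors of the list, also chosen after their values were seen, were expressed and did not pass. With FAC and in controls, Ppard averaged 33.4 and 33.1 CPM, Nr1h2 103 and 104 CPM, and Tfe3 51.3 and 52.9 CPM. Tfeb averaged 3.72 and 2.47 CPM (log2 change 0.57, edgeR adjusted p = 0.141).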

How the data were processed

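Libraries were made from 250 ng of RNA with a stranded mRNA kit, per the labels' protocols. The submitters' processing notes list, with no role or order, build GRCm39, RSEM 1.3.1, STAR 2.7.6a, DESeq2 1.26.0, DESeq and R 3.6.3. Per the file headers, the authors deposited RSEM expected counts (estimated, unscaled), TPM and effective lengths per gene and library. The authors' deposited table holds a normalised signal, scaled with factors that differ between genes.

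Expected counts were rounded and tested with edgeR 4.0.16 (quasi-likelihood, TMM, group only; filter at minimum count 10 and total 15; R 4.3.3), with Benjamini-Hochberg adjustment over all tested genes. Alternatives used DESeq2 1.42.0 and limma 3.58.1. The code was tested on simulated data. SE is the change over the square root of F. CPM is on the TMM scale, and 1 count equals 0.0268 to 0.0394 CPM before TMM. Limits at 3 counts cover counting error only.

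Mouse numbers mark cultures of the same animal. Deviations from group means correlated across genes at 0.137, 0.0165, 0.0647 and 0.139 for mice 1 to 4, and at most 0.0331 between different mice. Symbols came from the deposited table, then GENCODE M21. Overlaps between genes are those of its build, GRCm38. Members and lists were chosen with earlier results of these data known; 118 of 119 listed pathway symbols matched a gene. The text names all 10 members, called genes of each list (at most 5, else its most abundant gene) and the 4 genes most like Lpin1 and Lipg; marker genes, overlapping partners and genes called only with the replicate block are named as such, and others are said to be chosen after their values were seen.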

Additional observations from a re-analysis of the deposited data

Results flagged for a closer look

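In 2 of 38 sets of 4 libraries (19 named genes in each group), 1 library stood far from the other 3, and chance flags about 1 set in 20. Lpin2 had 16.9 CPM in FAC 1, below 19.8 to 20.3 CPM in the other FAC libraries. Agpat3 had 123 CPM in control 4, above 117 to 118 CPM in the other control libraries.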

How the results depend on the processing

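Over all genes, the count of calls was 919 with the replicate block, 736 with no filter on low counts, 744 with DESeq2, 97 and 117 with limma on log2(TPM + 1) and log2(TPM + 0.1), 156 with limma on the deposited signal, 187 with the effective length offset and 217 with block and offset together, an alternative added after the data had been seen. It ran from 147 to 549 when 1 library was left out. Of the calls 66.4% were higher, against 76.9% with limma on log2(TPM + 0.1), 59.0% with DESeq2, 55.7% without FAC 1 and 54.4% without FAC 3, the highest and lowest of all alternatives being 76.9% and 54.4%. The members past the threshold numbered 1 with limma on log2(TPM + 1) and 1 on log2(TPM + 0.1), where Lipg was not called, and 2 in all other alternatives. The pathway count was 12 with the replicate block, 3 in each limma fit (on log2(TPM + 1), log2(TPM + 0.1) and the deposited signal), 4 with the length offset and 4 with block and offset, and it ran from 3 to 9 without 1 library. The block changed no member's call. Lpin1, Pcyt2, Insig1 and Srebf2 were called in all 17 alternatives. The log2 change ran from 0.72 to 1.13 for Lpin1 and from 0.74 to 1.43 for Lipg; at their low counts the pseudocount of 1 TPM understates it. The causes of the other differences were not tested.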
